A study of Homo sapiens with 6 samples.

Results

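The MCM helicase family was examined as 9 genes, MCM2, MCM3, MCM4, MCM5, MCM6, MCM7, MCM8, MCM10 and MCMBP, chosen by gene symbol, and all 9 were among the 15953 genes of the deposited expression tables. EJ is a cell line derived from a human bladder cancer. RNA-seq libraries were made from 3 samples of EJ cells with a stable short-hairpin knockdown of STIL (shSTIL) and 3 samples with the negative control hairpin (shNC), as the sample labels and the study's methods name them. The column headings of the deposited tables read siNC and siSTIL, and libraries were grouped by the labels. No other treatment or time point separated the groups. The sources used here give neither the hairpin sequence nor the number of clones, and do not say whether the 3 libraries of a group were separate cultures, so P-values measure only the spread between these libraries.

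MCM2 to MCM7 assemble into the ring-shaped heterohexamer that unwinds DNA in front of the replication fork. In G1 phase the origin recognition complex, CDC6 and CDT1 load this ring onto origins as an inactive double ring, a step known as licensing, and in S phase CDC45 and the GINS complex join it to form the active CMG helicase. MCM10 takes part in the switch from the loaded to the active form, MCM8 works with MCM9 in homologous recombination, and MCMBP binds newly made MCM subunits and the free complex. Genes of the ring are classical E2F targets, expressed most strongly in cycling cells, and several of the proteins are used as proliferation markers in tumours.

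The expression unit was log2 CPM, the log2 of reads per 1000000 reads after library scaling, and changes are log2 fold changes, shSTIL minus shNC, with their standard error (SE). The 6 libraries held 16214772 to 16901634 reads. STIL itself had a log2 CPM of 5.98, 6.10 and 6.01 in the shNC libraries against 4.05, 4.06 and 4.01 in the shSTIL libraries, a log2 fold change of -1.99 (SE 0.05, adjusted p = 6.1e-12 by limma), in the direction of the labels. Among epithelial markers, the keratin genes KRT8, KRT18 and KRT7 had mean log2 CPM of 8.21, 9.30 and 6.75, while CDH1 (-2.13) and KRT5 (-2.96) lay near the floor of the scale and the urothelial genes UPK1A, UPK1B and UPK2 lay between -1.96 and 0.72. The mesenchymal gene VIM reached 10.18. Of the 12 epithelial and urothelial genes measured, KRT8 (log2 fold change -0.70) and UPK1B (-1.12) fell and KRT7 (0.49) and PPARG (0.26) rose, and of the 4 mesenchymal genes VIM (-0.68) and FN1 (-1.19) fell. The summed mesenchymal level (log2 CPM) was 10.61 to 10.65 in shNC and 9.92 to 9.95 in shSTIL libraries, and the summed epithelial level was 10.10 to 10.17 and 9.956 to 10.002. Their part in the results below was not tested. Leukocyte and endothelial markers were low, with a summed log2 CPM of 0.15 to 0.36 in control and 0.08 to 0.38 in shSTIL libraries, and 3 of the 6 on that list were measured.

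The promoters are shown first, and the windows of MCM2, MCM7 and MCM8 also hold the start of a neighbouring gene. RefSeq windows of 300 bases, from 250 before to 50 after each annotated start (GRCh38.p14), were found for 7 of the 9 members, 10 windows in all. They were searched on both strands for the E2F-type words TTTCCCGC, TTTCGCGC, TTTGCCGC and TTTGGCGC, which can overlap each other on opposite strands, and for CCAAT. No window was found for the ring subunits MCM4 and MCM5, so their promoters were not searched. Positions are counted from the start as 1. In the sequences below, capitals mark E2F-type words. The MCM2 window lies at chr3:127598161-127598460 on the plus strand, that of MCM6 at chr2:135876394-135876693 on the minus strand and that of MCM7 at chr7:100101348-100101647 on the minus strand.
MCM2: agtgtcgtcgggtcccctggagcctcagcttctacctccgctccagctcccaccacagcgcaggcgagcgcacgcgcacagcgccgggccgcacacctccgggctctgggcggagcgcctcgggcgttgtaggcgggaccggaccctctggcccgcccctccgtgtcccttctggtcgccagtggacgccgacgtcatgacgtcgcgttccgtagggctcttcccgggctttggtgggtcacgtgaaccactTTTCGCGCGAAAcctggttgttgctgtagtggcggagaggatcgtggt
MCM6: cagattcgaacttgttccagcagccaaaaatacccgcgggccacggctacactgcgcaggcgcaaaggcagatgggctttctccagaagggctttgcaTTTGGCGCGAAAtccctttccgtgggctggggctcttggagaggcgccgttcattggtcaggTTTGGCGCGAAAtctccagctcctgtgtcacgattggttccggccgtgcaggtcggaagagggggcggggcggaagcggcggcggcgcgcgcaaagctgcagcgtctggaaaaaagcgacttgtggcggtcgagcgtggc
MCM7: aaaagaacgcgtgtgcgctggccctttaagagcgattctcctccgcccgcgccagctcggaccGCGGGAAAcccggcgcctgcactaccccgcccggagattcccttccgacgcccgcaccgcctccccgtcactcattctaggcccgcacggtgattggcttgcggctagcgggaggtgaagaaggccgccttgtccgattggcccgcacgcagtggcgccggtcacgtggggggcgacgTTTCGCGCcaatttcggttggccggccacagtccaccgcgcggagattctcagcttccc

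For the members with smaller changes and for MCM3, a stretch of 30 bases around the first E2F-type word of the window shows the word on its own. These stretches lie at chr6:52284898-52284927 (minus strand) for MCM3, chr20:5950667-5950696 (plus strand) for MCM8 and chr10:119872834-119872863 (minus strand) for MCMBP.
MCM3: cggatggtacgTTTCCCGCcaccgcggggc
MCM8: ggatcactgaaGCGCCAAAaaagaatttag
MCMBP: ggcggcggctaTTTCCCGCcattgtgcgaa

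The MCM2 window held overlapping words at 3 and 7, MCM6 held 2 overlapping pairs that began at -152 and -90, MCM3 held words at -174 and -4, and MCM7 held words at -187 and -9. None of the E2F-type words searched was found in the MCM10 window, the other 2 windows of MCM7 or the other window of MCMBP. Other spellings of an E2F site were not searched, so this does not show that these windows lack one. In all, 6 of the 10 member windows held an E2F-type word. Such a word was found in 4.46% of the 18288 windows of genes measured here and in 3.31% of all 35116 promoter windows. The share was 6.54% for windows of genes called lower and 4.16% for those of genes called higher. CCAAT was found in 7 of the 10 member windows, in 34.4% of the windows of genes measured and in 34.6% of all windows. The MCMBP word, TTTCCCGC at -9, has the same letters as the first word of MCM3 at -174, and MCM3 also held TTTCGCGC at -4. Whether any of these words bears on the mRNA changes was not tested. A match is a description of letters and not of binding.

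Of the 9 members, 8 were down-regulated in STIL-knockdown cells with an adjusted p under 0.01, and none was up-regulated. Of all 15953 genes, 47.1% passed this threshold, 23.6% as lower and 23.5% as higher. The 6 ring subunits MCM2 to MCM7 all passed, with a median log2 fold change of -1.27 against 0.005 over all genes. The 9th member, MCMBP, did not pass. These counts describe a family that was chosen with results of these data known. RNA of a bulk culture was measured, so fewer cells in S phase and less MCM mRNA per cell cannot be told apart.

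**Figure D1:**
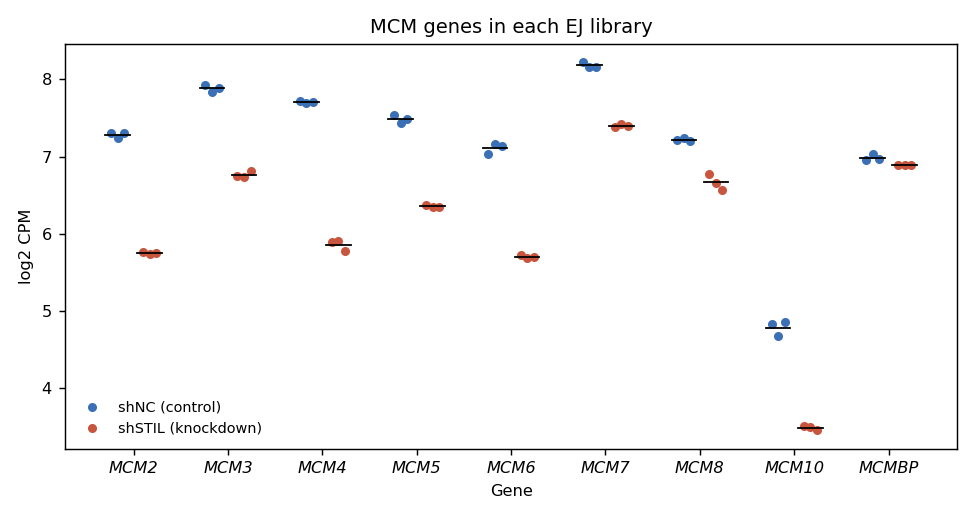
Log2 CPM (vertical axis) of the 9 MCM genes (horizontal axis) in the 3 shNC and 3 shSTIL libraries, 1 point per library, with the group mean as a line. The groups lie well apart for MCM2 to MCM7 and MCM10 and close together for MCMBP (6.98 against 6.89).

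Among the ring subunits, MCM4 changed most. It read 7.72, 7.69 and 7.71 log2 CPM with shNC and 5.89, 5.91 and 5.77 with shSTIL. The log2 fold change was -1.85 (SE 0.04, 95% interval -1.94 to -1.77, adjusted p = 1.7e-12 by limma), which left 27.7% of the control level. MCM4 ranked 56 of all genes by the size of the fall, and STIL ranked 40.

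MCM2, whose protein also carries histones at the fork, read 7.31, 7.24 and 7.30 in control and 5.76, 5.73 and 5.75 in shSTIL libraries. It fell by 1.53 on the log2 scale (SE 0.04, adjusted p = 2.3e-12 by limma), to 34.5% of control. MCM6, the partner of MCM2 and MCM4 in the ring, read 7.03, 7.16 and 7.14 against 5.72, 5.69 and 5.70. Its log2 fold change was -1.41 (SE 0.04, adjusted p = 1.6e-11 by limma), with 37.7% left. The spread of both genes within a group was far smaller than the distance between the groups.

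MCM3 and MCM5, which sit next to each other in the ring, moved by nearly the same amount. MCM3 read 7.93, 7.84 and 7.89 in control and 6.75, 6.73 and 6.81 in shSTIL libraries, a log2 fold change of -1.13 (SE 0.04, adjusted p = 2.8e-11 by limma). MCM5 read 7.54, 7.43 and 7.48 against 6.37, 6.34 and 6.35, also -1.13 (SE 0.04, adjusted p = 3.5e-11 by limma). About 45.8% of MCM3 and 45.6% of MCM5 was left.

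MCM7, the most abundant subunit, had the smallest change of the ring. It read 8.22, 8.16 and 8.16 in control and 7.38, 7.42 and 7.40 in shSTIL libraries, a log2 fold change of -0.78 (SE 0.03, 95% interval -0.84 to -0.71, adjusted p = 2.3e-10 by limma), with 58.3% left. The intervals of MCM4 and MCM7 do not overlap. MCM7 (chr7:100092728-100101940, minus strand, GENCODE 29) shares bases with AP4M1 on the opposite strand and hosts the miRNA genes MIR25, MIR93 and MIR106B, which are not among the genes measured here. Whether reads were counted by strand is not given in the sources used here, so reads in shared exons cannot be assigned with certainty.

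MCM10, which is not part of the ring, was the least abundant member. It read 4.83, 4.67 and 4.85 log2 CPM in control and 3.51, 3.49 and 3.45 in shSTIL libraries, with 414 to 456 reads in each shNC library and 183 to 193 in each shSTIL library. The log2 fold change of -1.30 (SE 0.07, adjusted p = 5.7e-09 by limma) was within the range of the ring subunits.

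MCM8 changed less than any ring subunit. It read 7.22, 7.24 and 7.20 in control and 6.77, 6.66 and 6.56 in shSTIL libraries, where the spread (SD 0.10, n = 3) was the widest of any member. The log2 fold change was -0.56 (SE 0.05, 95% interval -0.65 to -0.46, adjusted p = 2.4e-07 by limma), with 68.1% left. An antisense gene on the same locus, MCM8-AS1, is not among the genes measured here. MCM9, its helicase partner, had a log2 fold change of -0.23 (SE 0.08, adjusted p = 0.0272 by limma) at 205 to 246 reads per library and did not pass the threshold. The log2 ratio of MCM8 to MCM9 was 3.34 ± 0.08 in control and 3.01 ± 0.07 in shSTIL libraries (SD, n = 3), without overlap (exact permutation test, two-sided, p = 0.1).

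MCMBP read 6.95, 7.03 and 6.97 in control and 6.89 in each shSTIL library. The log2 fold change of -0.10 had a 95% interval of -0.17 to -0.02 (limma adjusted p = 0.0283), so a level between 88.9% and 98.5% of control lies within the interval. Every shSTIL library was below every shNC library, but the gap was small, and with each library centred on its median the log2 fold change was -0.05 (limma adjusted p = 0.222). The data therefore hold no call for MCMBP at 0.01, which does not show that its level was the same.

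All 9 members had shSTIL values wholly below the shNC values, and the groups lay apart, in either direction, for 60.3% of all genes. With 20 ways to label the libraries, the exact permutation test (two-sided) cannot go below p = 0.1, and it gave this value for every member. By GENCODE 29 (GRCh38) the members lie on 8 chromosomes, MCM3 at chr6:52264009-52284881 (minus strand), MCM5 at chr22:35400063-35425430 (plus strand), MCM6 at chr2:135839626-135876426 (minus strand), MCM8 at chr20:5950652-5998977 (plus strand), and MCM10 and MCMBP on chromosome 10, at 13161554 to 13211104 (plus strand) and 119829404 to 119892556 (minus strand). The recovered reads of all 9 members were whole numbers in all 6 libraries (within 0.01).

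**Figure D2:**
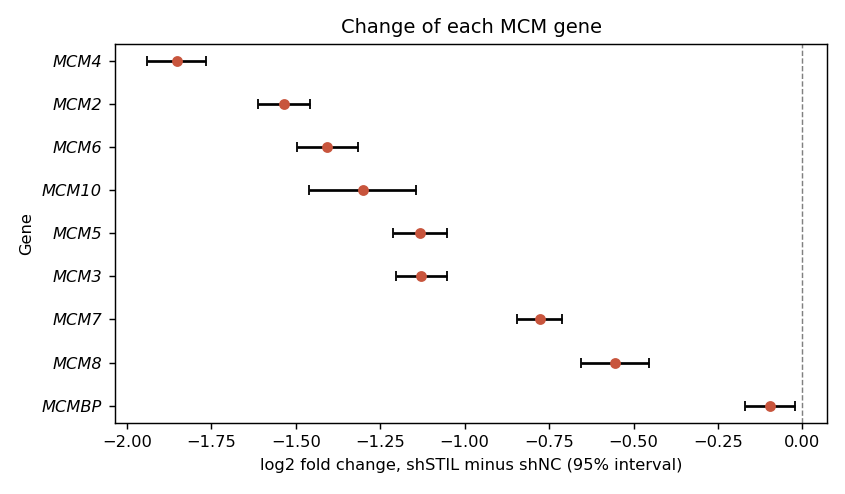
Log2 fold change of each MCM gene, shSTIL minus shNC (horizontal axis), with its 95% interval from limma as a bar, genes ordered by size on the vertical axis. MCM4 (-1.85) and MCM7 (-0.78) mark the ends of the ring subunits, and MCMBP (-0.10) lies nearest to 0.

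The subunits join the ring in equal numbers, so their balance was compared within each library, where library scaling cancels. Each subunit was set against the mean log2 CPM of the 6. MCM4 moved from 0.10 ± 0.004 above this mean in control to 0.45 ± 0.07 below it in shSTIL libraries, a shift of -0.55. MCM7 moved the opposite way against this mean, from 0.57 ± 0.02 to 1.10 ± 0.02 (SD, n = 3), a shift of 0.53. The level of MCM7 itself fell (log2 fold change -0.78). Because the mean is taken over the same 6 subunits, shifts down are offset by shifts up, and the shifts are not separate results. MCM2 shifted by -0.23, MCM3 by 0.18 and MCM5 by 0.17. The groups did not overlap for these 5 subunits (exact permutation test, two-sided, p = 0.1 each), and overlapped for MCM6, with a shift of -0.10 (exact p = 0.3). This permutation test cannot give a p below 0.1 with 3 libraries against 3.

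Of the 15 pairs of subunits, 14 had log2 ratios that did not overlap between the groups, against 56.3% of the pairs of all genes, in either direction. The pair that moved most was MCM4 and MCM7, whose log2 ratio was -0.49, -0.46 and -0.45 in control and -1.49, -1.51 and -1.63 in shSTIL libraries, a 2.11-fold change of the ratio. The exception was MCM3 and MCM5, whose log2 ratio was 0.40 ± 0.01 in control and 0.41 ± 0.04 in shSTIL libraries (SD, n = 3, exact permutation test, two-sided, p = 0.9). MCM2 and MCM6 came next, with a change of their log2 ratio of -0.13. These pairs were compared after the values had been seen, and the smallest p that the exact permutation test allows for a pair is 0.1.

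Levels of different genes were compared as reads per 1000000 reads, without further library scaling, per kb of the principal coding transcript (GENCODE 29). In shNC libraries MCM7 was highest at 96.5 ± 1.87, then MCM3 at 72.7 ± 1.80, MCM5 at 49.9 ± 1.72 and MCM4 at 49.2 ± 0.28 (SD, n = 3), and the ranges of the last pair overlapped. MCM2 (42.2 ± 0.83), MCM6 (36.5 ± 1.94), MCMBP (29.9 ± 1.13), MCM8 (19.6 ± 0.39) and MCM10 (8.57 ± 0.51) followed, each below the range of the gene before it. MCM7 and MCM3 thus headed the ring in control cells.

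In shSTIL libraries MCM7 (58.0 ± 0.90) and MCM3 (34.3 ± 0.91) kept the first places, and MCMBP (28.8 ± 0.11) stood above MCM5 (23.5 ± 0.19). MCM2 (15.01 ± 0.10), MCM6 (14.1 ± 0.12), MCM4 (14.04 ± 0.75) and MCM8 (13.8 ± 0.97) lay together. Among these, the ranges of MCM6, MCM4 and MCM8 overlapped, while MCM2 and MCM6 did not, and MCM10 was last (3.56 ± 0.08). MCM4 went from the level of MCM5 to that of MCM6. The order depended on the length used, since only MCM7 and MCM10 held the same place in both groups by either length. Per kb of coding length alone, a choice added after seeing the data, MCM8 was 6th of 9 in control and 4th in shSTIL libraries, and MCMBP was 5th and 2nd. By that length MCM2 was 8th in shSTIL libraries, with 20.04 ± 0.14 below the 21.45 ± 0.18 of MCM6 (SD, n = 3), the reverse of their order per kb of transcript, and MCM3 was 3rd and MCM4 6th.

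The highest subunit exceeded the lowest by 2.88, 2.52 and 2.57 times per kb in the shNC libraries and by 4.01, 4.20 and 4.40 times in the shSTIL libraries. MCM7 made up 27.8% ± 0.29 of the summed ring level per kb in control and 36.5% ± 0.44 in shSTIL libraries (SD, n = 3), while MCM4 went from 14.2% ± 0.09 to 8.83% ± 0.47. The whole ring took 1204, 1178 and 1188 reads per 1000000 in the shNC libraries and 529, 532 and 530 in the shSTIL libraries, so 44.6% of its share was left (exact permutation test, two-sided, p = 0.1). The groups were apart in each of these measures.

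**Figure D3:**
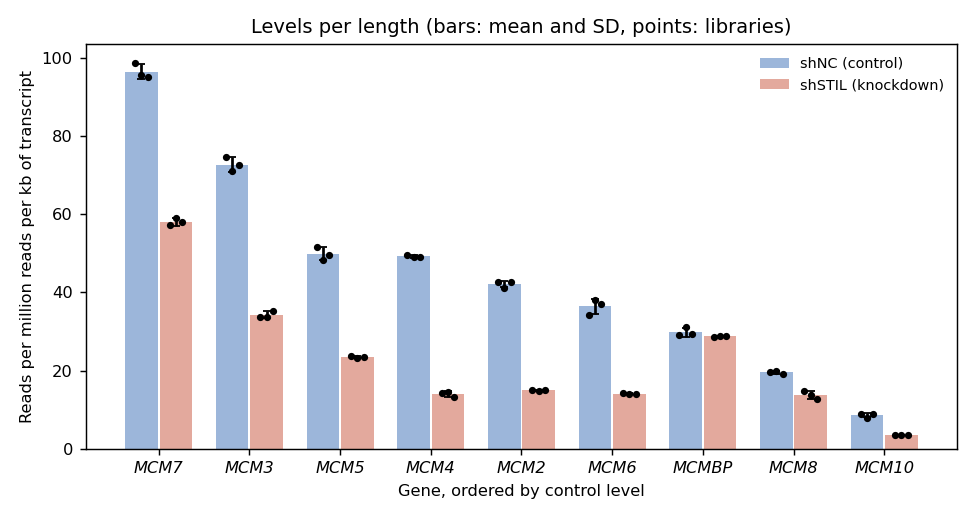
Reads per 1000000 reads per kb of transcript (vertical axis, from 0) for the 9 MCM genes in order of control level (horizontal axis), with bars for the mean, error bars for the SD and 1 point per library (n = 3). MCM7 stays highest (96.5 and 58.0), and MCMBP, 7th in control, stands 3rd in the shSTIL libraries.

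Several members share a start region with a gene on the opposite strand, which allows a comparison at nearly the same place in the genome. By GENCODE 29 (GRCh38), 5 members have such a neighbour with a start within 1000 bases, and these neighbours were chosen by position only. MCM4 (chromosome 8, 47960185 to 47978160, plus strand) starts 2 bases from PRKDC, the catalytic subunit of DNA-dependent protein kinase. PRKDC read 9.02, 9.06 and 8.98 in control and 8.73, 8.55 and 8.68 in shSTIL libraries, a log2 fold change of -0.37 (SE 0.04, adjusted p = 5.6e-06 by limma) beside -1.85 for MCM4. Both fell, MCM4 by 1.49 more on the log2 scale.

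MCM2 (chromosome 3, 127598223 to 127622436, plus strand) and TPRA1, which encodes a multi-pass membrane protein on the minus strand, have GENCODE starts 44 bases apart. The start of TPRA1 at 127598267 lies inside the MCM2 window printed above. That window was built on the RefSeq start of MCM2 at 127598411, so the 44 bases do not apply to it. TPRA1 read 4.96, 4.79 and 4.79 in control and 5.20, 5.23 and 5.16 in shSTIL libraries, a rise of 0.35 (SE 0.06, adjusted p = 1.5e-04 by limma). The genes thus changed in opposite directions. By their GENCODE coordinates the bodies of MCM2 and TPRA1 overlap, and reads in shared exons cannot be told apart without strand. The call for TPRA1 was lost without shNC replicate 3 (log2 fold change 0.33, adjusted p = 0.0103) and without shSTIL replicate 1 (0.35, 0.0132), 2 (0.34, 0.0136) or 3 (0.37, 0.0112).

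For MCM8, the window also holds the start of TRMT6, a subunit of a tRNA methyltransferase, 94 bases away. TRMT6 read 5.46, 5.52 and 5.56 against 5.53, 5.54 and 5.47, a log2 fold change of 0.003 (95% interval -0.10 to 0.10, limma adjusted p = 0.967), while MCM8 fell by 0.56. AP4M1, an adaptor complex subunit, starts 391 bases from the GENCODE start of MCM7 at 100101940. The MCM7 window printed above was built on the RefSeq start at 100101397. AP4M1 had a log2 fold change of -0.25 (SE 0.06, adjusted p = 0.00278 by limma), against -0.78 for MCM7. This call held without shNC replicate 2 but was lost without a mean-variance trend (adjusted p = 0.0167) and without each other library, with values between -0.27 and -0.20 and adjusted p from 0.0204 to 0.0356. For MCMBP the neighbour SEC23IP lies 155 bases from the outermost GENCODE start at 119892556, which is not the start in either RefSeq window. SEC23IP had a log2 fold change of 0.14 (SE 0.04, adjusted p = 0.00819 by limma), which was lost in 9 of 15 alternative fits (adjusted p from 0.00152 to 0.0584 over all of them), among these the fits without shNC replicate 1 (0.12), 2 (0.15) or 3 (0.16) and without shSTIL replicate 2 or 3 (0.13 each). In all 5 pairs the log2 ratio of member to neighbour was lower in each shSTIL library than in each shNC library (exact permutation test, two-sided, p = 0.1 each). Log2 ratios lay apart between the groups, in either direction, for 56.3% of the pairs of all genes. The value of 0.1 is the lowest p that this test allows here.

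**Figure D4:**
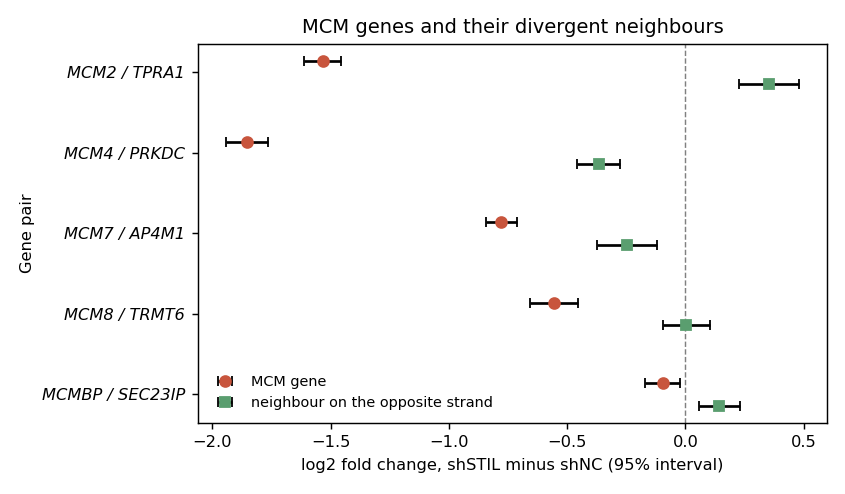
Log2 fold change, shSTIL minus shNC (horizontal axis), with 95% limma intervals, for 5 MCM genes (circles) and the gene that starts on the opposite strand within 1000 bases (squares), 1 pair per row. In each pair the MCM gene lies to the left of its neighbour, from MCM4 (-1.85) beside PRKDC (-0.37) to MCMBP (-0.10) beside SEC23IP (0.14).

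The genes that load, start and release the ring were then read from lists that were chosen by function, with earlier results of these data known. Within each list the genes named are the largest changes, or all genes of a short list. Others are named where a count is small or a call was lost in some fits, and were then chosen after their values were seen. Over all genes, 23.6% were called lower and 23.5% higher, and these shares are to be set beside the count of every list. Of the 9 loaders and licensing regulators, 7 were lower and 2 higher (median log2 fold change -0.67). The share of this list called higher was near that of all genes. CDC6, the ATPase that recruits the ring, fell by 1.69 (SE 0.05, adjusted p = 8.9e-12 by limma), and ORC1, the largest origin recognition subunit, fell by 1.37 (SE 0.08, adjusted p = 5.1e-09). The higher genes were ORC5 (log2 fold change 0.35, adjusted p = 2.3e-05) and ORC2 (0.25, adjusted p = 1.8e-04), whose call was lost without shSTIL replicate 1 (0.22), 2 (0.26) or 3 (0.26), with adjusted p from 0.0117 to 0.0124. Of the 6 origin recognition subunits 4 were lower, ORC6 (-0.67), ORC3 (-0.33) and ORC4 (-0.16) beside ORC1. The call for ORC3 was lost without shNC replicate 3 and without shSTIL replicate 1 or 3 (adjusted p up to 0.0129), and that for ORC4 in 6 of 15 alternative fits (adjusted p up to 0.0181), among these the fits without shNC replicate 2 or 3 and without shSTIL replicate 1 or 3.

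CDC45 and the 4 GINS genes complete the active helicase. GINS2 fell by 1.74 (SE 0.06, adjusted p = 5.1e-11 by limma), and the log2 fold changes of GINS4, CDC45 and GINS1 were -1.37 (adjusted p = 9.4e-09), -1.02 (adjusted p = 5.4e-10) and -0.88 (adjusted p = 3.7e-08). GINS3 was the exception, with a log2 fold change of -0.19 (95% interval -0.33 to -0.06, adjusted p = 0.0184). With 4 of 5 genes lower and a median of -1.02, this list came closest of those read here to the median of the ring (-1.27).

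Genes of helicase activation were lower in 7 of 9 cases, with none higher and a median of -0.61. RECQL4 fell by 1.16 (adjusted p = 1.0e-10) and CDC7, the kinase that phosphorylates the ring, fell by 0.86 (adjusted p = 8.1e-08, limma). DBF4, the activating subunit of that kinase, had a log2 fold change of -0.07 (95% interval -0.17 to 0.03, adjusted p = 0.204), and MTBP one of -0.26 (adjusted p = 0.0248). Fork protection and chromatin coupling genes were lower in 9 of 10 cases, with a median of -0.61: CLSPN, a checkpoint mediator at the fork, fell by 1.46 (adjusted p = 1.2e-09) and ASF1B, a histone chaperone, fell by 1.40 (adjusted p = 4.5e-11). Its paralog ASF1A did not pass (log2 fold change -0.08, adjusted p = 0.246). The call for TIPIN (-0.54, limma adjusted p = 5.9e-04) was lost in 5 of 15 alternative fits, each with a library left out (adjusted p up to 0.03).

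Genes that remove the ring from DNA after replication were mixed, with 4 of 8 lower, 1 higher (2 after median centring of each library) and a median of -0.24. VCP, the unfoldase that extracts the ring, fell by 0.64 (adjusted p = 5.5e-09), LRR1, the substrate receptor of the CUL2 ubiquitin ligase, fell by 0.64 (adjusted p = 2.1e-05), and FAF1, a VCP cofactor, rose by 0.50 (limma adjusted p = 2.8e-08). CUL2 (-0.26, adjusted p = 2.5e-05) and UFD1 (-0.48, adjusted p = 7.8e-07) were the other lower genes. The genes that did not pass were TRAIP (-0.22), NPLOC4 (0.07) and UBXN7 (-0.09).

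Among the 5 recombination genes listed around MCM8, 1 was lower and none higher, with a median of -0.19. This is a share near the 23.6% of all genes called lower. The lower gene was HROB, a factor that recruits the MCM8 and MCM9 helicase (log2 fold change -0.85, SE 0.07, adjusted p = 2.2e-07 by limma). The other 4 were MCM9 (-0.23), RAD51C (-0.16), RAD51D (-0.19) and MCMDC2. They had limma adjusted p between 0.0168 and 0.34 and did not pass at 0.01. MCMDC2 had 5 to 15 reads per library, too few to show a change of this size (log2 fold change 0.35, 95% interval -0.28 to 0.98). MCM3AP, which carries an MCM name but acts in mRNA export, rose by 0.28 (SE 0.04, adjusted p = 1.5e-05).

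The E2F and retinoblastoma families, whose members control transcription of the ring genes, did not share a direction. Of 13 genes, 6 were lower, 3 higher (5 after median centring of each library) and 4 did not pass. The median was 0.08. Among all genes 23.6% were called lower and 23.5% higher, so the share of the list called higher was near that of all genes. E2F2 fell by 1.48 (SE 0.11, adjusted p = 5.9e-08 by limma) and E2F8 fell by 1.28 (adjusted p = 4.2e-09), while E2F5 rose by 0.66 (adjusted p = 2.1e-05). The other lower genes were E2F7 (-1.13), E2F1 (-0.87), RBL1 (-0.53) and TFDP1 (-0.44). The other higher genes were E2F4 (0.20, adjusted p = 2.5e-04) and TFDP2 (0.25, adjusted p = 3.8e-04). RB1 (0.10) and RBL2 (0.08) did not pass, nor did E2F3 (0.09) and E2F6 (0.08).

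**Figure D5:**
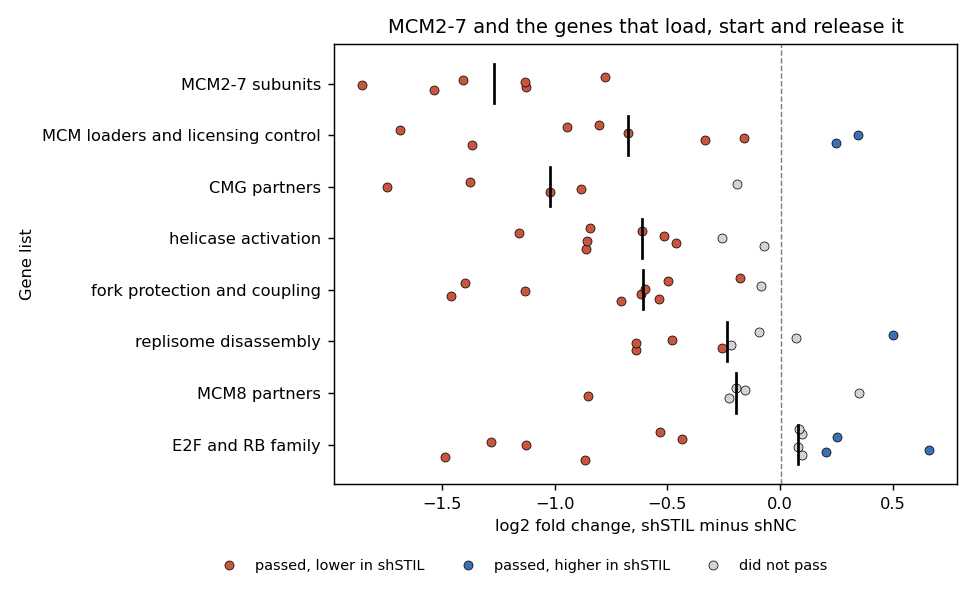
Log2 fold change, shSTIL minus shNC (horizontal axis), of every measured gene in 8 lists (vertical axis), 1 point per gene, with the list median as a black line and the median of all genes (0.005) as a dashed line. The 6 ring subunits lie furthest to the left as a list (median -1.27), and the E2F and RB family spreads from -1.48 to 0.66.

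The genes whose pattern over the 6 libraries was most like that of the ring were found by the Euclidean distance between log2 CPM minus the control mean and the same profile averaged over MCM2 to MCM7, among the 9934 genes whose mean log2 CPM was 3 or more. The nearest were TCTN2 (distance 0.06, log2 fold change -1.30), PKM (0.07, -1.27), FANCA (0.08, -1.33), SLC16A3 (0.08, -1.27) and HSPE1 (0.09, -1.30). TCTN2 encodes a protein of the ciliary transition zone, PKM a glycolytic enzyme, FANCA a Fanconi anaemia protein, SLC16A3 a lactate transporter and HSPE1 a mitochondrial chaperonin. By the same measure MCM10 lay at 0.12 and MCM6, the nearest subunit, at 0.22, while MCM4 lay at 0.95, MCM8 at 1.31 and MCMBP at 2.10. The distance describes these 6 libraries, which fall into 2 groups, and carries no test.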

How the data were processed

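Total RNA of the 6 EJ libraries was sequenced on the BGISEQ-500 instrument. Per the study's methods, SOAPnuke was the read filter, Bowtie2 the aligner (to transcript sequences) and RSEM the source of gene-level estimates; hg38 and limma are also in the submitters' processing notes, and versions are not given in the sources used here. The deposited log2 CPM values (15953 genes, 6 libraries) were computed by the authors with edgeR, with an apparent prior count of 2 that draws fold changes of low genes toward 0. Reads of all 6 libraries were worked back from log2 CPM. The deposited estimated counts (15957 genes) were at hand for 4 libraries and served only as a check. In those libraries, reads worked back from log2 CPM were within 0.000294 of these counts, and 87.44% to 87.82% of values were whole reads (within 0.01).

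The groups were compared with limma 3.58.1 (mean-variance trend, no replicate block, R 4.3.3) over all genes, with Benjamini-Hochberg adjustment and a threshold of 0.01. The reads so recovered were rounded for edgeR 4.0.16 and DESeq2 1.42.0, which were run as alternatives beside no trend, quantile normalization, median centring, a mean log2 CPM of at least 1, a prior count of 0.25, a threshold of 0.05, a replicate block and each library left out. The fits were also run on simulated data in which far fewer genes changed than here, and no result above rests on that run. Members, lists and tests were chosen with earlier results of these data known; 1 gene of the list around MCM8 is not reported here and was left out of its counts. Named genes were the members, STIL, the opposite-strand neighbours, the largest rise and 2 largest falls of each list (mean log2 CPM of at least 3), genes of any list of 6 or fewer, and the 5 genes nearest to the ring. The common dispersion gave a biological coefficient of variation of 3.02%.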

Additional observations from a re-analysis of the deposited data

How the results depend on the processing

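The calls of STIL and of the 8 called members held, with the same sign, in each of 15 alternatives, and the 6 ring subunits were called lower in all of them. The ring median of -1.27 moved to -1.25 under quantile normalization and -1.23 under median centring, and ran from -1.28 to -1.26 with each library left out. MCMBP had a log2 fold change of -0.11 to -0.05 and passed only at a threshold of 0.05. The share left of the ring was 43.3% from deposited CPM. The number of DEGs was 7509, and 4900 to 5638 with 1 library left out, lowest without shSTIL replicate 3. Median centring called 2 disassembly and 5 E2F and RB genes higher. A threshold of 0.05 called 4 MCM8 partners (1 at 0.01) and 1 other MCM-named gene lower. It also called GINS3, MTBP and TRAIP lower (limma adjusted p = 0.0184, 0.0248 and 0.0178). MTBP was called in 3 of the 15 alternatives. With each library left out, 1 (without shSTIL replicate 1, 2 or 3) to 2 loaders were called higher, and TRMT6 ran from -0.024 to 0.0273, below 0 without shNC replicate 1 (-0.024) and shSTIL replicates 1 (-0.0057) and 2 (-0.0081). The cause of these changes was not tested. A fit with the replicate block gave 6898 DEGs and the same 8 members. Deviations of same-numbered libraries from their group means had correlations of 0.02, -0.03 and -0.02, so no shared deviation was seen. This does not show that same-numbered libraries were handled apart. Depth limits MCMDC2, at 5 to 15 reads.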
